A study of Mus musculus with 32 samples.

Results

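The genes described here are 9 members of the transforming growth factor beta (TGF-beta) pathway: the ligands Tgfb1 and Tgfb2, the latency and activation genes Nrros and Itgb8, the receptors Tgfbr1 and Tgfbr2, the signal carrier Smad3 and the inhibitors Smad7 and Ski. They were chosen by name, and all 9 of them were found among the 55341 gene symbols of the count files. Their counts came from single-cell RNA sequencing of cortex and hippocampus of 16 female mice of 15 months, with 1 library per region and mouse. Of these mice, 8 were WT, with 5 on vehicle and 3 on PMX205, and 8 were Tg2576, with 4 on each (groups WT-vehicle, WT-PMX205 and so on). PMX205, an antagonist of the complement receptor C5aR1, was given in the drinking water for 12 weeks at about 2 to 8 mg/kg per day, and vehicle mice drank water. The comparisons ask in which cells the pathway is expressed, and whether amyloid genotype, C5aR1 antagonism or brain region changes its level.

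The genotype labels read APP and WT, and the strain labels name an Arctic model where the study names Tg2576. The group names used here are those of the study. By their strain labels 5 mice carried a constitutive C5ar1 knockout, and 5 others overexpressed C5a under the GFAP promoter, which is active in astrocytes. These 10 mice came from all groups, with 7 on vehicle (4 WT and 3 Tg2576) and 3 on PMX205 (1 WT and 2 Tg2576), and C5ar1 UMIs were found in microglia of 4 of the 5 mice labelled as knockouts. Strain and genotype disagreed for 2 animals, WT-vehicle 4 and Tg2576-vehicle 3, which were grouped by genotype. No fit with the strain label as a term was made, and its part in the results was not tested.

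TGF-beta is secreted as a latent complex, in which the mature ligand is caged by its own propeptide. Nrros anchors latent TGF-beta on microglia and macrophages, and the integrin formed by alpha v and beta 8 (Itgb8) releases it. The active ligand joins Tgfbr2 and Tgfbr1 into one receptor, the receptor phosphorylates Smad2 and Smad3, and Smad7 and Ski restrain the signal. In brain the pathway is known for maintaining the homeostatic state of microglia and for stabilizing blood vessels.

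Cells had been enriched with CD11b beads for microglia and ACSA-2 beads for astrocytes. Libraries held between 37205 and 1072049 UMIs (unique molecular identifiers, the tags by which RNA molecules are counted) in all their barcodes, and 5626 cells were used after filters and removal of doublets, with a median of 899.5 UMIs. A cell was assigned to the marker list that held at least 50% of its marker UMIs, with at least 3 different markers seen. No member of the pathway set was a marker. This gave 3182 microglia, 1568 astrocytes, 280 mural cells (pericytes and smooth muscle of vessels), 231 endothelial cells, 63 ependymal cells, 32 perivascular macrophages and 30 oligodendrocyte precursor cells, and left 232 cells unnamed. Of the 3182 microglia, 2336 also lay in clusters named microglia, and of the 1568 astrocytes 1302 lay in astrocyte clusters. Among cells passing the filters, 65 of 5424 barcode sequences occurred in more than 1 library. In 4 mice (Tg2576-PMX205 2 and 3, Tg2576-vehicle 4, WT-vehicle 5), between 25.5 and 66.4% of the barcodes had a partner in the same library that differed only at the first base, against at most 2.42% in the others. Among passing cells alone the share by library was 40.3 to 100% in those mice and at most 17.5% elsewhere, in the hippocampus of WT-PMX205 2. Levels are given as CPM, the UMIs of a gene over all UMIs of the same cells at the usual CPM scale, summed over the cells of a type in a mouse. Each UMI was counted near the 3′ end of a transcript, and levels are compared between cells and not between genes.

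In the GENCODE M21 annotation of mm10, Tgfb1 lies at chr7:25687002-25705077 on the forward strand and Tgfb2 at chr1:186622792-186705989 on the reverse strand. Tgfbr1 lies at chr4:47353222-47414931 (forward) and Tgfbr2 at chr9:116084293-116175360 (reverse). Nrros lies at chr16:32142785-32165594, Itgb8 at chr12:119158022-119238802, Smad3 at chr9:63646767-63757994 and Ski at chr4:155154075-155222592, all on the reverse strand. No other annotated gene overlapped the last exon of any of the 9 genes, the part that a 3′ method reads most.

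RefSeq promoter windows of GRCm38.p6, from 250 bases before to 50 bases after the annotated start, are shown 5′ to 3′ (1 of 2 entries for Tgfbr1) for the receptor with most UMIs in microglia and for the ligand and integrin subunit whose levels were higher outside microglia. Capitals mark matches to a set of 7 motifs on either strand. They are GGGCGG, known as the GC box and bound by Sp1, TATAAA, the TATA box of focused promoters, and CACGTG, the palindromic E-box of basic helix-loop-helix factors. The search also took GAGGAA, the core read by the myeloid factor PU.1 and other ETS proteins, TGACGTCA, the site of CREB family members, TGANTCA, the site of AP-1 dimers, and GTCTAGAC, the Smad palindrome.
Tgfbr1, chr4:47352972-47353271, forward strand: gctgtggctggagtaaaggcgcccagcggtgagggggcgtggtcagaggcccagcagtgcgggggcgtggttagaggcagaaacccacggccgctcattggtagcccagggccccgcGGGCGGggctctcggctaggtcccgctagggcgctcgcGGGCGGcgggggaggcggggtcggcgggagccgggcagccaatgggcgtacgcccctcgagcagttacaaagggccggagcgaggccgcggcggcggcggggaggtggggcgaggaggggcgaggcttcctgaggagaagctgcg
Tgfb2, chr1:186705940-186706239, reverse strand: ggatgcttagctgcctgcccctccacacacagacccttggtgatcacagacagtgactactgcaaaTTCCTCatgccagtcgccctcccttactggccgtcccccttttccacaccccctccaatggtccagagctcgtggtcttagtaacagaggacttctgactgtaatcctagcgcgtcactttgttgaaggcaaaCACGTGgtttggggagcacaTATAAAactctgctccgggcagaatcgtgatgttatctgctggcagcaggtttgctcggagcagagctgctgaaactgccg
Itgb8, chr12:119238227-119238526, reverse strand: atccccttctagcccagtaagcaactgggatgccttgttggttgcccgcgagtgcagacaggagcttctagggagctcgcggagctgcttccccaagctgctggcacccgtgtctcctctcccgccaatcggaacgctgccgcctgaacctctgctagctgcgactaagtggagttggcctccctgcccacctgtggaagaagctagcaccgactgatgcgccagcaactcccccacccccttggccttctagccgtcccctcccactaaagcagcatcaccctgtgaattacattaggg

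The Tgfbr1 window was 74.7% G and C and held 2 GC boxes, a motif found in 35.9% of 32544 mouse promoter windows of the same length. The Tgfb2 window was 54.3% G and C and held a TATA box starting 31 bases before the annotated start, an E-box starting 51 bases before it and 1 GAGGAA match, motifs found in 13.6, 7.17 and 28.1% of all windows. The Itgb8 window held none of the motifs. Among the other members with a window, Tgfb1 and Ski each held 6 GC boxes, Smad3 held 2, Tgfbr2 held 1 GAGGAA match and Nrros held none. No member window held the CREB (1.80% of all windows), AP-1 (7.79%) or Smad palindrome (0.215%) letters. A match of letters is a description of these windows and not evidence of a bound factor.

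The microglial members were Tgfb1, Nrros, Tgfbr1, Smad3 and Ski, whose mean level was highest in microglia among the 4 cell types with enough mice. Itgb8 was highest in astrocytes, and Tgfb2, Tgfbr2 and Smad7 had their highest mean in endothelial cells. With a stricter gate for cell types the full order of the 4 types stayed for 4 of 9 members, and the highest type stayed for 8, all but Tgfbr2, which was then highest in microglia. Endothelial Tgfbr2 was above the microglia of the same mouse in 3 of 7 mice, and its mean was raised by WT-vehicle 2 (1006 CPM, 11 cells), without which its fold change against microglia was -0.19. The ligand Tgfb1 was found at 0 to 116 CPM in microglia of 16 mice (median 78.5, mean 71.5 ± 33.3 SD). In mural cells it averaged 28.8 ± 26.1 (n = 7), in endothelial cells 15.7 ± 15.6 (n = 7) and in astrocytes 13.5 ± 14.2 (n = 13). Microglia were above astrocytes in 12 of 13 mice, yet the ranges overlapped. WT-PMX205 mouse 3 had no Tgfb1 UMI in its 52 microglia and the highest astrocyte value (47.7, from 2 UMIs), and microglia of 3 other mice (18.1, 38.7 and 43.0) were also below that value.

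The other ligand, Tgfb2, had the opposite distribution. Its level was 221 ± 114 CPM in endothelial cells (range 0 to 341, n = 7), 112 ± 64.8 in astrocytes (14.01 to 264, n = 13) and 83.1 ± 48.7 in mural cells (0 to 145, n = 7). Microglia had 8.40 ± 9.10 (0 to 27.5, n = 16), from 30 UMIs in all. The endothelial values of single mice were 341 in Tg2576-vehicle 1, 293 in WT-vehicle 1, 288 in WT-vehicle 2, 266 in Tg2576-PMX205 3, 187 in WT-vehicle 4, 173 in Tg2576-PMX205 2 and 0 in Tg2576-vehicle 3. Except for the last, with 17 endothelial cells, every mouse was above its own astrocytes.

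Nrros, the anchor of latent TGF-beta on myeloid cells, was measured at 82.0 to 262 CPM in microglia (median 162, mean 166 ± 45.5, n = 16). It was 81.9 ± 115 in endothelial cells, 50.2 ± 30.6 in astrocytes and 44.9 ± 59.7 in mural cells. Perivascular macrophages, pooled over 10 mice because no mouse had enough of them, had 22 UMIs or 488 CPM, with an exact 95% Poisson interval of 306 to 739. The pooled microglial level was 173 CPM (159 to 187). These intervals cover counting error only, so the difference between macrophages and microglia has no replicate check.

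Itgb8, the integrin subunit that activates latent TGF-beta, was measured in astrocytes at 101 to 446 CPM (median 252, mean 256 ± 83.3, n = 13). Microglia had 30.3 ± 20.5, mural cells 17.5 ± 24.4 and endothelial cells 7.01 ± 11.97, the last from 3 UMIs in all. Oligodendrocyte precursor cells, 30 cells pooled over 11 mice, had 48 Itgb8 UMIs or 940 CPM (693 to 1247), and ependymal cells 231 CPM (158 to 327). In the precursor cells Tgfb1, Tgfbr2, Nrros and Smad7 had no UMI. This allows a level of up to 58.8 CPM by a floor of 3 counts, and up to 72.3 CPM by the exact 95% Poisson interval.

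The receptor kinase Tgfbr1 was found at 1068 to 2148 CPM in microglia (median 1695, mean 1684 ± 286.5, n = 16). Astrocytes of 13 mice had 91.8 to 668 (mean 320 ± 150), endothelial cells 133 to 463 (274 ± 113) and mural cells 0 to 603 (207 ± 195). No astrocyte, endothelial or mural sum reached the lowest microglial value. Tgfbr2, which binds the ligand, was shared between microglia (257 to 622, mean 419 ± 109) and endothelial cells (306 to 1006, 491 ± 242). It was lower in mural cells (75.8 to 445, 175 ± 128) and astrocytes (19.9 to 143, 54.5 ± 36.9), and pooled perivascular macrophages had 754 (522 to 1054) and ependymal cells 347 (256 to 460).

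Smad3, the signal carrier, had 86.7 ± 34.4 CPM in microglia, 53.0 ± 73.2 in endothelial cells, 41.2 ± 22.6 in astrocytes and 26.7 ± 39.98 in mural cells. Smad7, an inhibitor that TGF-beta itself induces, had 334 ± 134 in endothelial cells and 92.0 ± 37.6 in microglia. Mural cells had 63.6 ± 54.1 and astrocytes 27.2 ± 19.6. Endothelial Smad7 was 494 in Tg2576-PMX205 2, 431 in WT-vehicle 2, 420 in Tg2576-vehicle 3, 384 in WT-vehicle 1, 292 in Tg2576-vehicle 1, 187 in WT-vehicle 4 and 133 in Tg2576-PMX205 3, each above the microglia of the same mouse. Ski, a corepressor of Smads, had 330 ± 118 in microglia, 191 ± 137 in mural cells, 166 ± 130 in endothelial cells and 111 ± 46.7 in astrocytes.

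**Figure D1:**
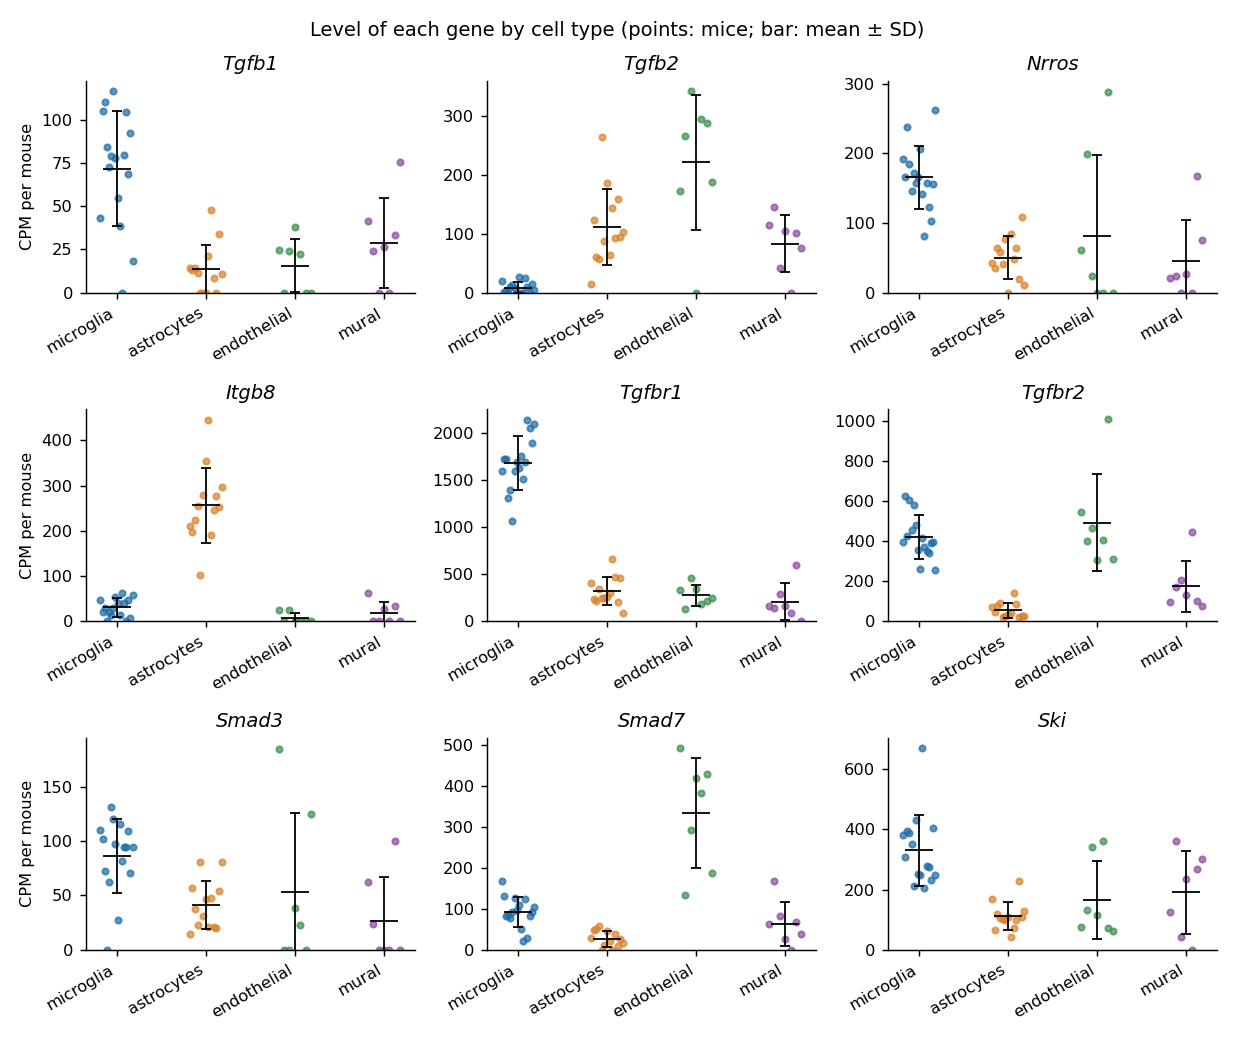
Each panel plots 1 gene, with CPM on a linear axis that starts at 0 and a point for each mouse with enough cells of the type (16 mice for microglia, 13 for astrocytes, 7 for endothelial and 7 for mural cells). The black bars are mean ± SD. Tgfbr1 in microglia (1068 to 2148) lies above all other points of its panel, Itgb8 is highest in astrocytes, and Smad7 and Tgfb2 are highest in endothelial cells.

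Neighbours in the order of mean levels were compared within mice by an exact two-sided sign-flip permutation test on log2 CPM with a prior count of 1, and p-values were adjusted over all 27 neighbour pairs. Only Tgfbr1 of microglia over astrocytes and Itgb8 of astrocytes over microglia passed, each in 13 of 13 mice (adjusted p = 0.0033, exact permutation). Every pair that involved vessel cells had 6 or 7 mice, so its p could not fall below 0.0312 or 0.0156, and the latter became 0.0703 after adjustment. Tgfb1 and Ski of microglia over mural cells, Tgfbr2 of mural cells over astrocytes and Smad7 of endothelial cells over microglia reached that limit, with all 7 mice on the same side. The other 21 pairs did not pass either. Tgfbr2 of microglia over mural cells (1.45 on the log2 scale, SD 1.10) and Nrros of microglia over endothelial cells (2.29, SD 2.28) were each on that side in 6 of 7 mice, with exact permutation p = 0.0312 and 0.0469 before adjustment. Neighbours that were closer included Tgfbr2 of endothelial cells and microglia, with a mean difference of 0.07 on the log2 scale (SD 0.70, n = 7), and Tgfb2 of endothelial cells and astrocytes, with 0.63 (SD 2.02, n = 7).

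UMIs of a gene can also occur in cells that do not express it, and the markers of other cell types served as a yardstick. These markers also set the gate, which limits how many of their UMIs a cell of another type can hold. The members have no such limit, so a place inside or above a marker range is a description only. The 12 microglial markers had between 9.63% (Csf1r) and 18.6% (Fcer1g) of their microglial level in astrocytes, with a median of 14.8%. Tgfbr1 in astrocytes stood at 17.99% of its microglial level, Tgfb1 at 15.99% and Tgfbr2 at 12.9%, inside that range. Whether such UMIs came from free RNA, remaining doublets, the gate or low expression was not tested. Nrros at 32.0%, Smad7 at 32.2%, Ski at 33.7% and Smad3 at 46.2% stood above it. In the reverse direction the 12 astrocyte markers had 6.09 to 11.6% of their level in microglia, where Tgfb2 stood at 9.05%, inside the range, and Itgb8 at 12.7%, just above it.

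In endothelial cells the microglial markers had 4.39 to 11.5% of their microglial level (median 9.32%). On this pooled scale each of the 9 members was above that range. Values went from 16.7% for Tgfbr1 to 107% for Tgfbr2, 110% for Smad3, 358% for Smad7 and 3023% for Tgfb2. For Smad3 the mean over mice had the other order, with 53.0 CPM in endothelial cells and 86.7 in microglia. Tgfb1 and Itgb8 had only 5 and 3 endothelial UMIs. Their exact 95% Poisson intervals, 5.77 to 41.5 and 2.20 to 31.2 CPM, reach down into the range (microglia 81.5 and 31.3 CPM). Against astrocytes, where it was highest of these types, endothelial Itgb8 stood at 4.34% of its level, inside the range of the 12 astrocyte markers in endothelial cells (0 to 6.82%). In mural cells the range was 7.67 to 17.9%, and Tgfbr1 at 12.7% was the member inside it.

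**Figure D2:**
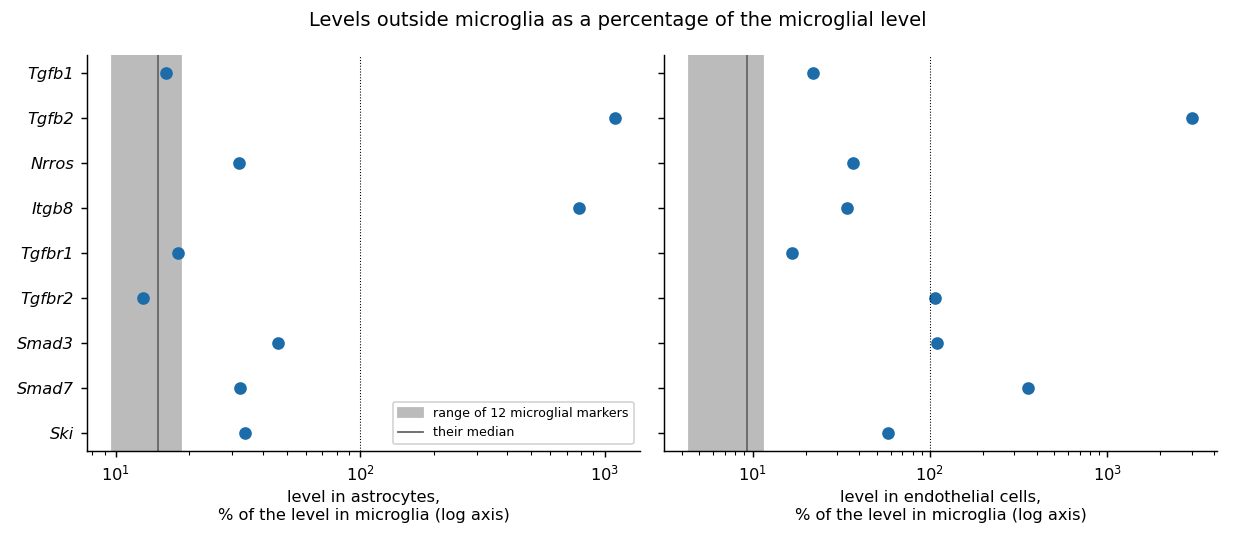
Points give each gene's pooled CPM in astrocytes (left) or endothelial cells (right) as a percentage of its pooled CPM in microglia, on a log axis with a dotted line at 100%. The grey band is the range of the 12 microglial markers and the line in it their median. The points of Tgfb1, Tgfbr1 and Tgfbr2 fall inside the band in astrocytes, and no point does in endothelial cells. There Tgfb1 and Itgb8 rest on 5 and 3 UMIs.

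Microglia and astrocytes of the same mouse were then compared in a model across all genes, with edgeR's quasi-likelihood test, the mouse as a block and 13 mice. Of the 6 members with enough counts to be tested, 5 were higher in microglia and Itgb8 was lower. Over all 2901 genes tested, 34.2% were higher and 31.5% lower in microglia at an adjusted p below 0.05. Tgfb1, Tgfb2 and Smad7 fell below the filter on low counts. With all genes of at least 1 UMI kept, Tgfb1 (2.78, adjusted p = 5.72e-11) and Smad7 (1.76, adjusted p = 9.7e-07) were higher in microglia and Tgfb2 was lower (-3.20, adjusted p = 2.56e-16). The share of all genes past the threshold in that fit is not given here. Tgfbr1 had 1679 ± 276 CPM in microglia and 320 ± 150 in astrocytes, a log2 fold change of 2.41 (SE 0.18, adjusted p = 2.26e-14), without overlap of the ranges. Tgfbr2 had 422 ± 96.7 and 54.5 ± 36.9 (2.91, SE 0.22, adjusted p = 2.78e-14), again without overlap. The ranges overlapped for Ski (1.47, SE 0.20), Nrros (1.55, SE 0.27) and Smad3 (1.06, SE 0.27), which were higher in microglia of 13, 12 and 11 of 13 mice. Itgb8 had 28.7 ± 18.3 in microglia and 256 ± 83.3 in astrocytes (-3.24, SE 0.25, adjusted p = 4.3e-14), and no microglial value reached an astrocyte value. For Tgfbr1 and Tgfbr2 the fold change is a difference from an astrocyte level inside the range of the microglial markers.

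Other genes of the pathway and its targets were counted from lists fixed by name. Of 53 other pathway genes 15 could be tested, and 7 were higher and 3 lower in microglia (median log2 fold change 0.58, against 0.05 over all genes). Over all genes 34.2% were higher and 31.5% lower. Pmepa1, a target and inhibitor of the pathway that removes Smad proteins from the receptor, had 1169 ± 295 CPM in microglia and 147 ± 112 in astrocytes (2.98, SE 0.22). Itgb5, another integrin subunit that can activate latent TGF-beta, differed by 2.35 (SE 0.19) and Skil, a relative of Ski, by 1.54 (SE 0.22). Lower in microglia were the bone morphogenetic protein (BMP) receptors Bmpr1b (-3.56, SE 0.28) and Bmpr1a (-1.41, SE 0.26) and Itgav (-0.88, SE 0.16), which encodes the alpha v partner of beta 8.

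Of 40 target genes, 21 could be tested, with 16 higher and 3 lower in microglia (median 2.41), against 34.2% higher and 31.5% lower over all genes. The 3 lower genes were the general targets Id3 (-3.52, SE 0.22), Id2 (-2.98, SE 0.17) and Tsc22d1 (-1.68, SE 0.23), of which the Id genes also respond to BMPs. The 16 higher genes all came from the list of microglial genes known to depend on TGF-beta, led by Csf1r (3.48, SE 0.20), Slc2a5 (3.46, SE 0.25) and Tmem119 (3.34, SE 0.20). Csf1r, Tmem119, C1qa and Cx3cr1 are among the markers by which microglia were chosen, so their direction was fixed by that choice.

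Endothelial cells were set against astrocytes in 7 mice, where 5 members could be tested. Tgfbr2, Smad7 and Tgfb2 were higher in endothelial cells and Itgb8 was lower, against 25.3% higher and 32.5% lower among all 1679 genes tested. Tgfbr2 had 491 ± 242 CPM in endothelial cells and 53.5 ± 30.7 in astrocytes (log2 fold change 3.05, SE 0.41, adjusted p = 8.27e-11), and Smad7 had 334 ± 134 and 32.9 ± 20.3 (3.26, SE 0.46, adjusted p = 8.85e-10). Neither overlapped between the cell types. Tgfb2 had 221 ± 114 and 97.8 ± 35.2 (1.03, SE 0.45, adjusted p = 0.0409) and overlapped. Itgb8 had 7.01 ± 11.97 and 254 ± 34.6 (-4.26, SE 0.66, adjusted p = 1.64e-08). Tgfbr1 did not pass, with 274 ± 113 and 260 ± 120 (0.05, SE 0.37, adjusted p = 0.913).

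Size factors computed by RLE instead of TMM moved the median log2 fold change of all genes by -0.55 in this comparison and the share of calls that were higher from 43.7 to 29.3%. On that scale Tgfbr2 (2.51) and Smad7 (2.71) stayed past the threshold, Tgfb2 (0.48, adjusted p = 0.34) did not, and Tgfbr1 turned to -0.51, close to the shift itself. Tgfb2 also missed it with DESeq2 (0.47, adjusted p = 0.361), with doublets kept (0.93, 0.0757), with all genes of at least 1 UMI (0.27, 0.817) and without Tg2576-vehicle mouse 1 (0.67), WT-vehicle mouse 1 (0.89) or Tg2576-PMX205 mouse 3 (0.86).

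Against microglia of the same 7 mice, endothelial cells had lower Tgfbr1, Nrros and Ski and higher Smad7 among 5 members tested. The background was 19.7% higher and 27.2% lower of 1884 genes, and RLE moved its median by -0.27. Tgfbr1 had 274 ± 113 CPM in endothelial cells and 1741 ± 235 in microglia (-2.59, SE 0.31, adjusted p = 8.36e-14). Smad7 had 334 ± 134 and 94.7 ± 36.7 (1.81, SE 0.40, adjusted p = 3.55e-05), higher in 7 of 7 mice, and with all genes of at least 1 UMI it missed the threshold (1.13, adjusted p = 0.0714). Neither gene overlapped between the types. Nrros had 81.9 ± 115 and 163 ± 35.4 (-1.52, SE 0.53, adjusted p = 0.0112), and Ski 166 ± 130 and 349 ± 63.1 (-1.01, SE 0.38, adjusted p = 0.0199), each lower in 6 of 7 mice. With those low genes kept, 2 members that had fallen below the filter passed, and the share of all genes that did is not given here. Tgfb2 was higher in endothelial cells (3.82, adjusted p = 3.56e-08, 6 of 7 mice) and Tgfb1 lower (-2.80, adjusted p = 0.00136, 7 of 7 mice, without overlap, from 5 endothelial UMIs). Tgfbr2 did not pass, with 491 ± 242 and 440 ± 95.3 (0.07, SE 0.31, adjusted p = 0.887), and under RLE it stood at -0.20. Without Tg2576-PMX205 mouse 2, which gave 82 of the endothelial cells, 2 members were past the threshold. Ski missed it without that mouse (-0.71), Tg2576-vehicle 3 (-0.86) or WT-vehicle 4 (-0.84), and Nrros without WT-vehicle 1 (-1.18). Without the 2 mice of contradicting strain label neither passed (Ski -0.70, adjusted p = 0.164, and Nrros -1.17, adjusted p = 0.0756). Ski also missed the threshold with the stricter gate (-0.96, adjusted p = 0.0667), Leiden clusters (-0.54), at least 1000 UMIs per cell (-0.89) and cortex only (-0.61).

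The other pathway genes that were higher in endothelial cells were led, in both comparisons, by the receptor Acvrl1 and the co-receptor Eng, which carry TGF-beta and BMP signals in vessels, and by Ltbp4, which tethers latent TGF-beta to the matrix. Acvrl1 had 796 ± 340 CPM in endothelial cells, 11.9 ± 8.42 in astrocytes and 33.8 ± 16.6 in microglia. Eng had 664 ± 192, 4.77 ± 6.05 and 41.3 ± 14.2 in the same order, and Ltbp4 1188 ± 406, 36.3 ± 33.8 and 10.8 ± 9.67. In each comparison 7 of the other pathway genes were higher and 3 lower, of 10 tested against astrocytes and 13 against microglia. Over all genes 25.3% were higher and 32.5% lower against astrocytes, and 19.7% and 27.2% against microglia. Lower against astrocytes were Bmpr1b (-5.39, SE 0.84), Itgav (-2.23, SE 0.44) and Itgb5 (-1.78, SE 0.39), and lower against microglia were Itgb5 (-3.90, SE 0.35), Pmepa1 (-1.84, SE 0.30) and Itgav (-1.40, SE 0.47).

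Of all 19 targets tested against astrocytes, 7 were higher and 9 lower in endothelial cells (median -0.81, against -0.16 over all genes). Over all genes 25.3% were higher and 32.5% lower. The general list had 5 higher of 6 tested in either comparison, and the microglial genes known to depend on TGF-beta had 2 higher and 8 lower of 13 against astrocytes. Fn1, a matrix protein, had 2175 ± 727 CPM in endothelial cells, 5.17 ± 8.63 in astrocytes and 20.9 ± 21.1 in microglia, and Id1, an inhibitor of differentiation factors, 1270 ± 372, 57.4 ± 12.98 and 10.98 ± 12.3. Id3 had 1534 ± 440 in endothelial cells and 31.9 ± 15.4 in microglia, and the cell cycle inhibitor Cdkn1a 293 ± 202 in endothelial cells and 5.21 ± 6.62 in astrocytes. Id2 (-2.34, SE 0.29), Cst3 (-2.02, SE 0.26) and Mertk (-1.79, SE 0.33) were lower than in astrocytes. Of the 17 microglial targets tested against microglia, 16 were lower in endothelial cells, against 27.2% of all genes. They were led by Tmem119 (-4.47, SE 0.37), Olfml3 (-4.40, SE 0.55) and Csf1r (-4.33, SE 0.28), of which Tmem119 and Csf1r are gate markers.

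The genes most like each member were those with the highest Pearson r of log2 CPM over 46 sums per mouse and cell type, searched among 8893 genes. Points share mice, libraries and depth, so r is a description of how levels followed cell type. Tgfbr1 was most like Tmem119 (r = 0.92), Otulinl (0.86) and Elmo1 (0.85). Itgb8 was most like Scd2 (0.89), Plekhb1 (0.88) and Shisa4 (0.88), and Smad7 most like Rassf3 (0.84), Srgn (0.83) and Slc6a6 (0.80). For Tgfbr2 the genes were Tpt1, Rps20 and Msn (0.82, 0.82 and 0.81), for Ski Gdi2, Pfn1 and Limd2 (0.78, 0.75 and 0.73) and for Tgfb1 Actr2, Trim30a and Gm49369 (0.77, 0.77 and 0.75). For Nrros they were Lyn, Klhl6 and Tspan14 (0.75, 0.75 and 0.74), for Tgfb2 Usp53, Pcdh1 and Reck (0.74, 0.72 and 0.72), and for Smad3 Lpgat1, Nol12 and C3ar1 (0.74, 0.73 and 0.73).

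Whether the amyloid genotype changed the pathway in microglia was asked of Tg2576-vehicle and WT-vehicle mice, with both regions of a mouse summed and all 4 groups in one edgeR fit. Of the 9 members 7 could be tested and 0 passed. Over all 5486 genes 6 passed, or 0.109%. Microglial Tgfbr1 in WT-vehicle mice 1 to 5 was 1691, 2148, 2059, 1897 and 2104 CPM, and in Tg2576-vehicle mice 1 to 4 it was 1395, 1068, 1603 and 1698. The groups overlapped through 1 mouse on each side, WT-vehicle 1 and Tg2576-vehicle 4. The log2 fold change was -0.41 (SE 0.24, 95% interval -0.88 to 0.06, unadjusted p = 0.0955, adjusted p = 0.999 in edgeR).

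Microglial Tgfbr2 was 352, 342, 390, 396 and 257 CPM in the WT-vehicle mice and 456, 580, 481 and 355 in the Tg2576-vehicle mice. It was above every WT-vehicle value in 3 of 4 Tg2576-vehicle mice. The log2 fold change was 0.47 (SE 0.27, 95% interval -0.05 to 0.99, unadjusted p = 0.0877, adjusted p = 0.999 in edgeR). The remaining differences were 0.34 for Tgfb1 (SE 0.43, between 0.0579 and 0.467 with 1 mouse left out), 0.20 for Ski (SE 0.31), 0.17 for Smad7 (SE 0.38), 0.13 for Smad3 (SE 0.41) and 0.01 for Nrros (SE 0.31). None of the 7 members had an unadjusted p below 0.05, DESeq2 called 0 of them, and neither fold change of the receptors reversed in any alternative run.

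PMX205 moved no member past the threshold in microglia of either genotype. In Tg2576 mice, Tgfbr1 was 1602, 1727, 1728 and 1312 CPM and Tgfbr2 397, 622, 427 and 605 in the 4 treated mice, with overlap with vehicle for both. The 7 differences lay between -0.29 for Smad3 (SE 0.42, between -0.486 and -0.0581 with 1 mouse left out) and 0.28 for Nrros (SE 0.32). In WT mice, treated Tgfbr1 was 1634, 1755 and 1518 and treated Tgfbr2 261, 413 and 369. The largest difference was -1.03 for Tgfb1 (SE 0.68, unadjusted p = 0.136), where the treated mice had 54.9, 38.7 and 0 CPM from 7 UMIs in all, and the vehicle mice 79.6, 105, 68.4, 92.0 and 18.1. Leaving out 1 mouse in turn gave -1.64 to -0.613, and the other members lay between -0.50 for Smad7 and 0.41 for Ski. For the difference between the treatment effects of the genotypes 0 of the 7 members passed, with the largest contrast 1.03 for Tgfb1 (SE 0.81, unadjusted p = 0.211), or 0.631 to 1.65 with 1 mouse left out, and the others between -0.24 for Ski and 0.75 for Smad7 (SE 0.65). Tgfb2 and Itgb8, below the filter in microglia, did not pass in any of these comparisons or by genotype with all genes kept. Among all 5486 genes edgeR called 0.0% in each of these 3 comparisons, with 146, 305 and 190 genes at an unadjusted p below 0.05, and DESeq2 called 1, 0 and 0 genes. No member was below 0.05 unadjusted.

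**Figure D3:**
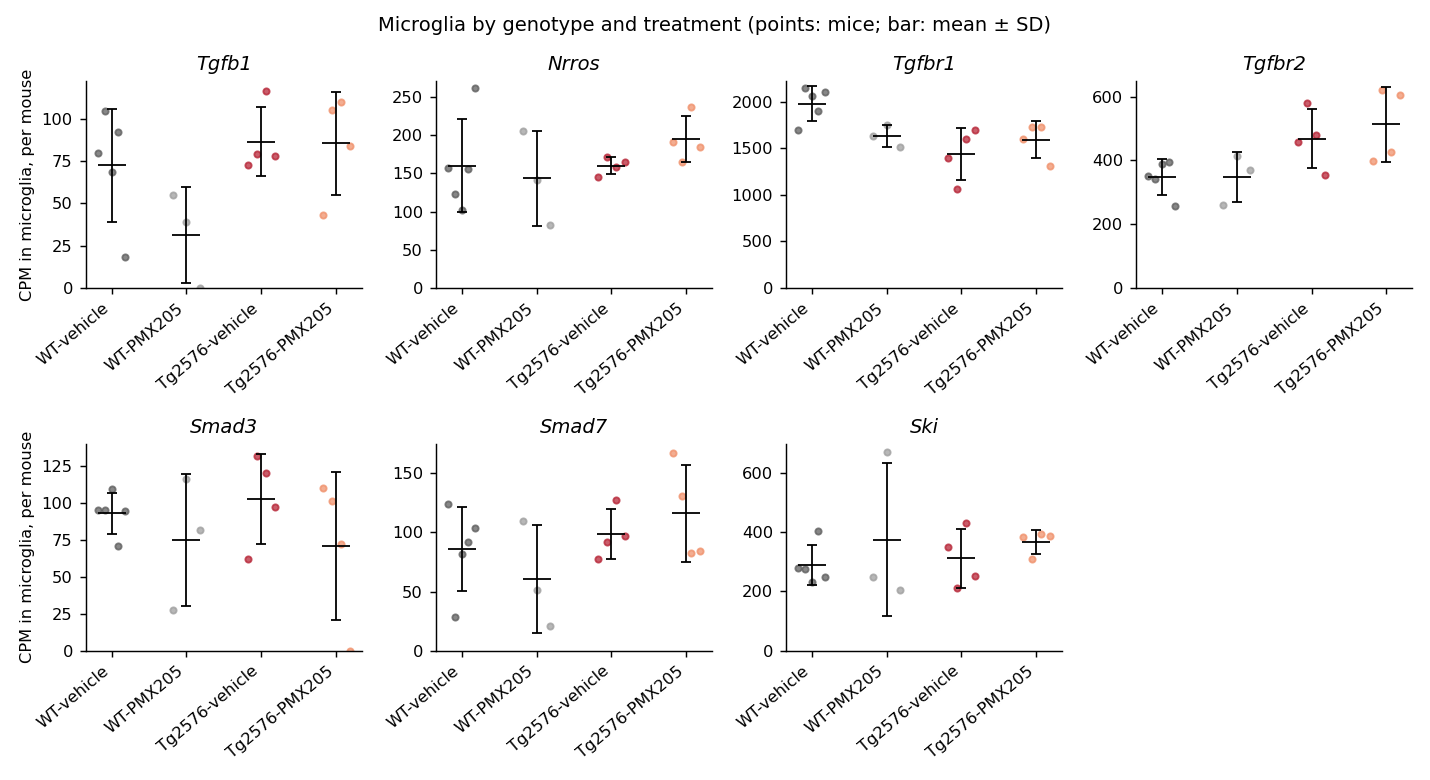
Microglial CPM of the 7 genes that could be tested, on linear axes from 0, with a point for each of the 16 mice by group and black bars for mean ± SD. The groups of each comparison made overlap in every panel, with Tgfbr1 between 1068 and 2148 over all mice.

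Markers of other cells differed somewhat between the groups. In the order WT-vehicle, Tg2576-vehicle, WT-PMX205, Tg2576-PMX205, the 12 endothelial markers summed in microglia to 113 to 298, 101 to 410, 245 to 533 and 295 to 658 CPM. The 12 astrocyte markers summed to 2329 to 6884, 2796 to 4019, 3509 to 6849 and 2423 to 4386. The microglial markers themselves summed to 27380 to 47190, 32090 to 43460, 25590 to 45340 and 31450 to 47690. Their part in the members' levels was not tested.

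In astrocytes 4 members could be tested, namely Tgfb2, Tgfbr1, Ski and Itgb8, in 4 mice of the WT-vehicle group and 3 of each other group. None passed for genotype, for treatment in either genotype or for the difference of treatment effects, and edgeR called 0.0% of 3031 genes in each of the 4 comparisons, with 89, 87, 219 and 151 genes at an unadjusted p below 0.05. DESeq2 called 0 genes in each. Itgb8 averaged 268 ± 23.6 CPM in WT-vehicle and 212 ± 96.6 in Tg2576-vehicle astrocytes, and 330 ± 129 and 211 ± 13.2 in the PMX205 groups of WT and Tg2576. Tgfb2 averaged 112 ± 31.1, 136 ± 111, 131 ± 61.8 and 66.1 ± 54.7 in the same order. The largest differences were -0.44 for Ski by genotype (SE 0.46), -0.69 for Tgfb2 by treatment in Tg2576 mice (SE 0.56), -0.81 for Ski by treatment in WT mice (SE 0.54) and -0.98 for Tgfb2 between the treatment effects (SE 0.79). These values moved when 1 mouse was left out, to between -0.566 and -0.157 for Ski by genotype, between -1.36 and -0.0328 for Tgfb2 by treatment in Tg2576 mice, between -1.34 and -0.551 for Ski by treatment in WT mice and between -1.62 and -0.276 for the Tgfb2 contrast. With all genes kept 0 of 9 members passed in each of the 4 comparisons. Tgfb1, below the filter, had 9 UMIs in treated and 1 in vehicle Tg2576 mice (13.9 ± 0.692 and 3.86 ± 6.68 CPM). Its unadjusted p was 0.216 in edgeR with all genes kept.

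Between regions, microglia of 14 mice with enough cells in both were compared with the mouse as a block. Of 4 members tested 0 passed in edgeR, 0 had an unadjusted p below 0.05 and DESeq2 called 0, while 1.08% of 1567 genes passed. Tgfbr1 was 1660 ± 249 CPM in cortex and 1695 ± 453 in hippocampus, a log2 fold change of 0.0031 (SE 0.12, 95% interval -0.22 to 0.23), higher in hippocampus of 7 of 14 mice. Tgfbr2 was 413 ± 85.0 and 486 ± 186 (0.23, SE 0.15), Ski 316 ± 94.3 and 411 ± 238 (0.32, SE 0.18) and Nrros 184 ± 56.9 and 140 ± 71.2 (-0.36, SE 0.26). Leaving out 1 mouse in turn gave 0.131 to 0.308 for Tgfbr2, 0.21 to 0.384 for Ski and -0.518 to -0.269 for Nrros. With all genes of at least 1 UMI kept 0 of 9 members passed, and Smad3 (-0.74, unadjusted p = 0.0473, adjusted p = 0.907) had the lowest p among the 5 that fell below the filter. The 12 astrocyte markers summed in these microglia to 4141 ± 1370 CPM in cortex and 2716 ± 1712 in hippocampus, lower in hippocampus in 12 of 14 mice. Their part in the members' levels was not tested.

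In astrocytes of 8 mice, 2 members could be tested between regions. Tgfbr1 was 105 to 538 CPM in cortex (median 305, mean 323 ± 148) and 0 to 356 in hippocampus (median 140, mean 145 ± 118). It was lower in hippocampus in 7 of 8 mice, with overlapping ranges and a log2 fold change of -1.24 (SE 0.34, adjusted p = 0.0181 in edgeR), where 5.34% of 992 genes passed. The call was lost without Tg2576-vehicle mouse 3 (-1.05) or WT-vehicle mouse 1 (-1.13), without both mice of contradicting strain label (-1.05), with the stricter gate (-1.22, adjusted p = 0.0692) and without the mouse as a block (-1.18).

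Microglial markers moved with Tgfbr1 in these astrocytes. The sum of the 12 microglial markers was 2879 to 12110 CPM in cortical and 460 to 7812 in hippocampal astrocytes, lower in hippocampus in 8 of 8 mice. Per 100 UMIs of these markers there were 4.37 Tgfbr1 UMIs in cortical and 4.88 in hippocampal astrocytes, and 3.84 and 3.90 in microglia. Each of the 9 microglial markers that could be tested was lower, among them Cx3cr1 (-1.33), Csf1r (-1.28) and C1qa (-1.25), which are in the list of targets as well. Of the 7 microglial targets tested that are no markers, 2 passed the threshold as lower, Selplg (-1.39) and Siglech (-1.34). Over all 11 microglial targets tested, markers among them, the median was -0.999 and 1 was above 0. Of the members below the filter, none passed with all genes kept. Tgfbr2 was lower in 8 of 8 mice (-2.08 with all genes kept, unadjusted p = 0.00754, adjusted p = 0.393 in edgeR), Nrros in 7 of 8 (-1.83, unadjusted p = 0.0137, adjusted p = 0.503 in edgeR) and Smad7 in 6 of 8 (-2.13, unadjusted p = 0.0235, adjusted p = 0.619 in edgeR), and Tgfb1 had 0 UMIs in hippocampal and 18 in cortical astrocytes. The part of other cells' RNA in these values was not tested.

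Itgb8, the other member tested, differed in the opposite direction. It was 166 to 253 CPM in cortical astrocytes (median 216, mean 212 ± 35.1) and 115 to 483 in hippocampal ones (median 377, mean 356 ± 124). It was higher in hippocampus in 7 of 8 mice, all but Tg2576-PMX205 3, but did not pass the threshold (0.67, SE 0.29, 95% interval 0.11 to 1.24, adjusted p = 0.207 in edgeR). The sum of the 12 astrocyte markers was higher in hippocampus in 8 of 8 mice, at 38380 to 53400 against 36220 to 45090 CPM.

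**Figure D4:**
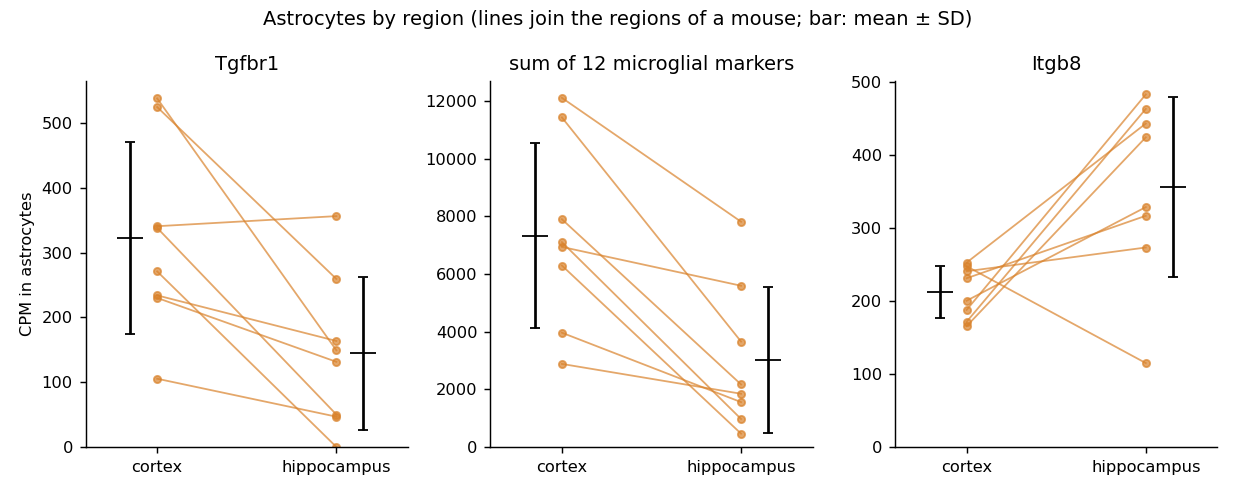
CPM in astrocytes of cortex and hippocampus for Tgfbr1, the sum of 12 microglial markers and Itgb8, on linear axes from 0. Lines join the regions of each of 8 mice and black bars are mean ± SD: Tgfbr1 falls from 323 to 145, the marker sum falls in every mouse, and Itgb8 goes from 212 to 356.

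Microglia of Tg2576 mice were split by a gate for disease-associated microglia (DAM), a state found around plaques, which asked for at least 2 of the genes Cst7, Clec7a, Itgax, Lpl, Gpnmb, Csf1 and Spp1. It took 306 of 1951 cells, with a median of 1193 UMIs against 829 in the others. In the 6 mice with enough cells, 0 of 7 members tested passed in edgeR, 0 had an unadjusted p below 0.05 and DESeq2 called 0, against 2.36% of 3219 genes. Tgfbr1 was 1060 to 1869 CPM in DAM-gated cells (mean 1462 ± 323) and 1511 to 1990 in the others (1694 ± 163), lower in 4 of 6 mice (-0.18, SE 0.16, between -0.262 and -0.102 with 1 mouse left out). Tgfbr2 was 249 to 819 (542 ± 225) and 383 to 526 (435 ± 55.8), higher in 3 of 6 mice (0.35, SE 0.22, between 0.2 and 0.482 with 1 mouse left out). Both receptors moved with all genes of at least 1 UMI kept. Tgfbr1 was then -0.47 (unadjusted p = 0.00825, adjusted p = 0.423 in edgeR) and Tgfbr2 0.04 (unadjusted p = 0.873). The other differences lay between -0.32 for Nrros (SE 0.31, between -0.531 and -0.099 with 1 mouse left out) and 0.24 for Ski (SE 0.22), and the groups overlapped for all 7 members.

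Among 21 target genes tested in this comparison, Tmem119, a homeostatic marker of microglia, was lower and no other passed. It was 1129, 1006, 1433, 1322, 1186 and 581 CPM in DAM-gated cells of Tg2576-PMX205 mice 2, 3 and 1 and Tg2576-vehicle mice 1, 3 and 4. The other microglia of the same mice had 2434, 2011, 1880, 1738, 2129 and 1182. It was lower in 6 of 6 mice (-0.72, SE 0.16, adjusted p = 0.0084 in edgeR). The 21 targets had a median of -0.24 against -0.03 over all genes, and the 16 other pathway genes tested had -0.08, with 0 called in edgeR.

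**Figure D5:**
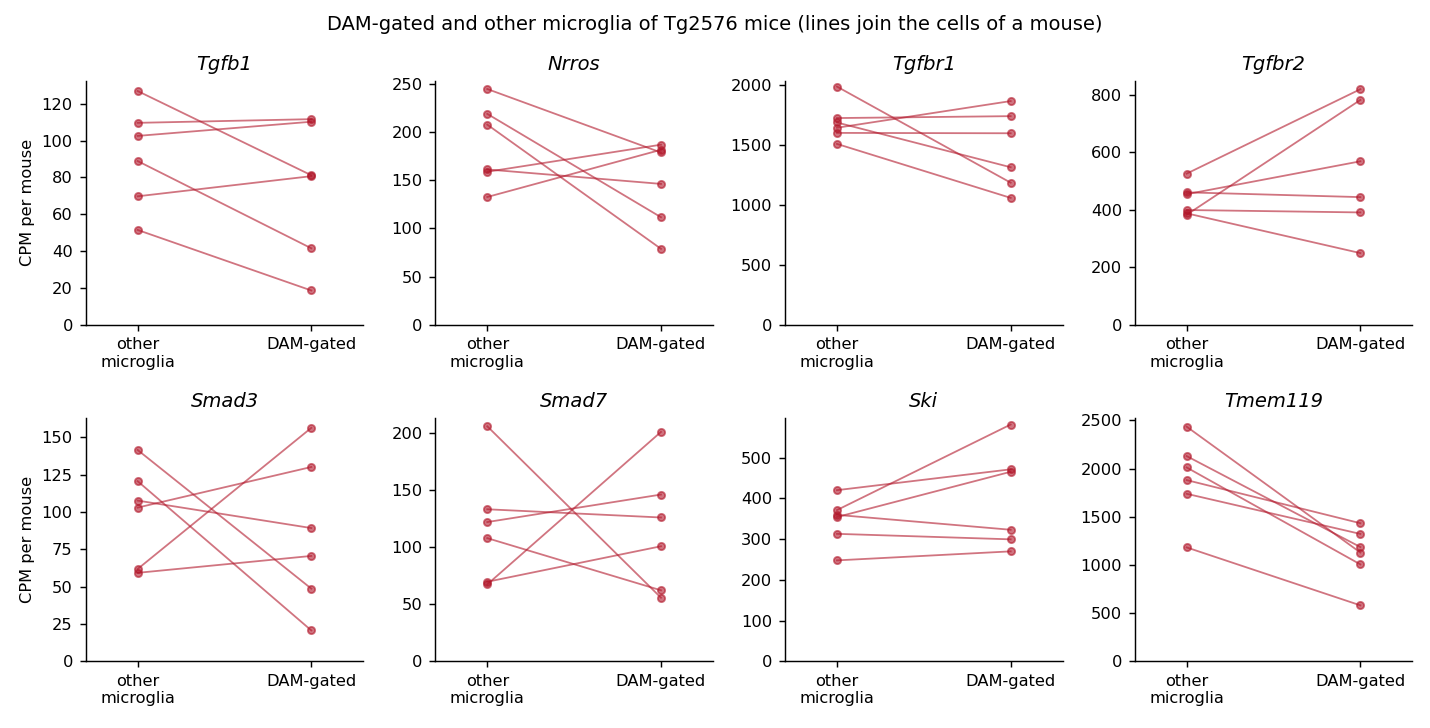
CPM of 7 pathway genes and Tmem119 in DAM-gated and other microglia, on linear axes from 0, with lines joining the cells of each of 6 Tg2576 mice. Lines of the pathway genes cross in both directions, and Tmem119 falls in 6 of 6 mice.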

How the data were processed

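The authors deposited UMI counts per gene and barcode, not normalized, made with kb_python (kallisto bustools, SureCell setting) on mm10 with the GENCODE M21 annotation, for barcodes with at least 300 UMIs. The submitters' processing notes also name bcl2fastq 2.18.0.12 and Seurat. All 55341 symbols matched M21. Cells needed 500 UMIs, 300 genes and at most 5% mitochondrial UMIs. Scrublet scored each library (scanpy 1.11.5) and its top 6% were removed as doublets, except in 1 library of 17 cells (hippocampus of WT-vehicle 5), which could not be scored and lost 0. Libraries held 37205 to 1072049 UMIs.

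UMIs were summed per mouse and cell type, for at least 20 microglia or astrocytes or 10 other cells. edgeR 4.0.16 (filterByExpr, TMM, quasi-likelihood, R 4.3.3) tested the sums, with Benjamini-Hochberg adjustment over all genes and a threshold of 0.05. The mouse was the block for regions, cell types and the DAM gate, since the labels give these samples the same animal. CPM are over all genes without TMM. Intervals of fold changes are 95% normal intervals from the SE. Scripts were tested on simulated data. Alternatives used DESeq2 1.42.0, other size factors, filters, gates, clusters and left-out mice.

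The rule for naming took all 9 members in every comparison. Some are given there by counts or ranges only. Of the other lists, every gene called for genotype, treatment, region or DAM was named, except 1 that is not reported here, and between cell types the 3 largest per direction and list. Members and lists were chosen with earlier results of these data known. Intervals and floors (3 counts) cover counting error only.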

Additional observations from a re-analysis of the deposited data

Results flagged for a closer look

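Of 61 sets of 4 to 10 mice checked for a value far from the rest of its set, 6 held one, and chance gives about 5% of sets. In microglia, Ski was 308.4 CPM in Tg2576-PMX205 2 against 382.6 to 394.7 in the other mice of its group, and 403.5 in WT-vehicle 4 against 232.6 to 278.6. Microglial Tgfb1 was 116.4 in Tg2576-vehicle 3 against 72.6 to 79.1. Astrocyte Tgfb2 was 158.8 in WT-vehicle 2 against 93.5 to 102.6. Tgfbr2 was 1006 in endothelial cells of WT-vehicle 2, with 11 cells, against 306 to 543, and 445.4 in mural cells of WT-PMX205 1, with 10 cells, against 75.8 to 208.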

How the results depend on the processing

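The number of members past the threshold was 0 for genotype and treatment in both cell types under every alternative that could be fitted, and microglia against astrocytes kept its directions. Between regions of astrocytes, Tgfbr1 (-1.24) was lost with the stricter gate (0 members passed, Tgfbr1 -1.22), without the mice of contradicting strain label (0, -1.05) and with no replicate block (0, -1.18). At 1000 UMIs per cell 1 member, Itgb8, could be tested and 0 passed, and 0 to 1 passed when 1 mouse was left out. For endothelial cells against astrocytes, 2 members, Tgfbr2 and Itgb8, passed of 3 that could be tested with the stricter gate, with Leiden clusters and at 1000 UMIs, 0 in cortex only, where 1 could be tested, and 3 to 4 without single mice. Against microglia 2 to 4 passed without single mice. With the stricter gate 0 neighbour pairs of cell types passed. None could, since each pair had 4 or 5 mice and its p could not fall below 0.125 or 0.0625. Microglia and astrocytes, the types of the pairs that had passed, were not neighbours there. The order of cell types stayed for 4 of 9 members. The replicate block was the mouse, and leaving it out changed no other call.

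None of the fold changes that turned sign was past the threshold. Nrros by genotype in microglia turned with DESeq2 (-0.00404), the stricter gate (-0.18), 1000 UMIs (-0.365), without contradicting mice (-0.0106) and in cortex only (-0.206), and lay between -0.105 and 0.229 without single mice. Without contradicting mice and in cortex only, Smad3 was -0.089 and -0.0592 (-0.00724 to 0.316 without single mice), Smad7 -0.00595 without contradicting mice (-0.016 to 0.353) and Ski -0.22 in cortex only (-0.00746 to 0.34). Smad3 by treatment in Tg2576 microglia was 0.0642 at 1000 UMIs, and Tgfb2 in astrocytes 0.116 in cortex only. Tgfbr1 between regions of microglia was -0.00168 with DESeq2, -0.00485 with RLE, -0.147 with all genes of at least 1 UMI, -0.0439 with the stricter gate, -0.121 with Leiden clusters, -0.0063 with doublets kept, -0.0219 at 1000 UMIs, -0.0314 with first-base pairs merged and -0.00751 without contradicting mice, and -0.073 to 0.0298 without single mice. Tgfbr1 of endothelial cells against astrocytes was -0.508 with DESeq2, -0.51 with RLE, -0.687 with 1 UMI, -0.0355 with doublets kept, -0.427 at 1000 UMIs and -0.242 without contradicting mice (-0.14 to 0.336 without single mice). Tgfbr2 against microglia was -0.198 with DESeq2 and RLE, -0.629 with 1 UMI, -0.325 with the stricter gate, -0.581 at 1000 UMIs and -0.202 in cortex only (-0.191 to 0.243). In DAM-gated cells, asking for 3 DAM genes gave 0.141 for Tgfb1, 0.432 for Smad3 and -0.404 for Ski. There Smad3 was 0.108 without contradicting mice (-0.404 to 0.121 without single mice), Smad7 -0.169 with 1 UMI and -0.0262 with merged pairs (-0.165 to 0.397), and Ski -0.0462 with 1 UMI. The causes were not tested. Hippocampus only could not be fitted for WT-PMX205 astrocytes, and between groups mice share replicate numbers by accession order only, so no pairing was made there. Tgfb1, Tgfb2, Smad3 and Smad7 rest on few UMIs, and how small a difference in them could be found at this depth was not tested.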
